A study of Mus musculus with 12 samples.

Results

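The MAP kinase phosphatases are a family of enzymes with 10 genes in the mouse, Dusp1, Dusp2, Dusp4, Dusp5, Dusp6, Dusp7, Dusp8, Dusp9, Dusp10 and Dusp16, and all 10 were found among the 23478 genes of the count table. They were chosen as a family around Dusp8, whose own counts, higher after the drug, put it forward; its drug values are therefore a description and carry no test. Lungs of newborn C57/Bl6 mice were profiled by RNA-seq after lavage fluid had been taken out. On day 0 the pups were injected intraperitoneally with saline or with aurothioglucose at 25 mg/kg (ATG below), which is a gold drug and an inhibitor of thioredoxin reductase. They then stayed in room air or were kept for 72 h in oxygen above 95% (hyperoxia). The 4 groups were saline in room air, ATG in room air, saline in hyperoxia and ATG in hyperoxia, with 3 samples each, and no genotype other than the strain is given.

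MAP kinases (ERK, JNK and p38) are switched on by phosphorylation of a threonine and a tyrosine in their activation loop, and dual-specificity phosphatases switch them off by removing both phosphates. The members fall into 3 classes. Dusp1, Dusp2, Dusp4 and Dusp5 encode nuclear enzymes whose genes are induced by growth factors and stress, Dusp6, Dusp7 and Dusp9 encode cytoplasmic enzymes that prefer ERK, and Dusp8, Dusp10 and Dusp16 encode enzymes that prefer JNK and p38. In the lung, MAP kinase signalling takes part in branching, epithelial repair and the response to oxidants. The catalytic cysteine of these phosphatases can itself be oxidised.

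Total counts per sample ran from 14331749 to 20486735. Nothing in the labels ties samples to animals or litters; the p-values therefore cover only the spread between these samples, which may be technical in part. Lung markers were high in every library (Sftpc, surfactant protein C, stood at 5459 to 7792 CPM, the count scaled by library size). Sftpa1 was lower in hyperoxia (1030 to 1461 CPM) than in room air (1613 to 2176 CPM) without overlap. So was Scgb1a1 (8239 to 9221 CPM against 9518 to 16650 CPM). The other lung markers overlapped between room air and hyperoxia. Libraries 2 of saline hyperoxia and of ATG hyperoxia stood apart in cardiomyocyte genes: the 10 markers summed to 2374 and 5010 CPM there, and Nppa, the atrial natriuretic peptide gene, was at 269.8 and 1108 CPM against 1.85 to 3.55 CPM elsewhere. Library 1 of saline hyperoxia stood apart in skeletal muscle genes, which summed to 357.4 CPM. Of 8 such markers 7 were detected well enough to test, and in the other 11 libraries they summed to between 20.8 and 62.1 CPM. Neuron markers (6 of 7 tested) summed to 71.2 to 86.7 CPM in room air and 50.7 to 64.9 CPM in hyperoxia. That sum was mainly Stmn2 (69.1 to 82.7 CPM in room air, 47.2 to 55.3 CPM in hyperoxia), which was lower in hyperoxia without overlap. Of the members called for hyperoxia below, only Dusp10 also fell, while Dusp4, Dusp7, Dusp9 and Dusp16 rose. The other tested neuron markers were at most 5.58 CPM and overlapped between room air and hyperoxia. Neutrophil markers (5 of 6 tested) ran from 61.1 to 241.3 CPM and macrophage markers (6 of 6) from 231.7 to 285.5 CPM. Thymocyte markers (4 of 6 tested) reached 62.7 CPM in library 2 of saline hyperoxia, and B, T and NK cell markers (7 of 7) ran from 15.8 to 47.7 CPM. None of the tested markers was at 0 in every library, and the part of these cells in the values below was not tested beyond the fits that leave libraries out. In whole lung, fewer cells of a type and less RNA per cell cannot be told apart.

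The Dusp8 gene is on the minus strand of chromosome 7 (chr7:142079487-142095907, GRCm38, exons and introns together, protein-coding). Its promoter window in RefSeq, from 250 bases before to 50 bases after the annotated start, is shown with that of Dusp1 because these were the windows among the members with a cyclic AMP response element, the letters TGACGTCA bound by CREB and ATF family factors. The Dusp8 window is chr7:142095235-142095534 and the Dusp1 window is chr17:26508423-26508722 (both minus strand, GRCm38.p6). The Dusp8 window lies inside the span of the gene, so its annotated start is an inner one and not the outer 5' end. Distances for Dusp8 are from that inner start. Capitals mark TGACGTCA and, in Dusp1, also a separate match to the antioxidant response element TGACNNNGC, which reads GCCCGGTCA on this strand.
Dusp8: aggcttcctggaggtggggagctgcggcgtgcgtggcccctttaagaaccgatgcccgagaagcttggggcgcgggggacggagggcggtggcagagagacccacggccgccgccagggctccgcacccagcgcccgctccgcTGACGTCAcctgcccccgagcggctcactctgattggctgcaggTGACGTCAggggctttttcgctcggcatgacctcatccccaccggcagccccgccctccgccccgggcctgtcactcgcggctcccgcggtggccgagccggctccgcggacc
Dusp1: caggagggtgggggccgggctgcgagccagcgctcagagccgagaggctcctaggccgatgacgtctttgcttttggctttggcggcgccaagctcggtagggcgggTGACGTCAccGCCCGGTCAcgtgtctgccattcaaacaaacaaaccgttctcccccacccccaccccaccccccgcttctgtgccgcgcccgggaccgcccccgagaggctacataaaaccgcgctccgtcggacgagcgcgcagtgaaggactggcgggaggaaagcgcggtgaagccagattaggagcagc
The Dusp8 window held TGACGTCA at 107 and 63 bases before the start and the Dusp1 window held it at 143 bases. Both strands were searched in 32851 windows of 300 bases, of which 1.79% held TGACGTCA at least once and 0.0396%, or 13 windows, held it 2 or more times. The antioxidant element was in 12.4% of windows; among the members it was found in Dusp1, 133 bases before the start, and in Dusp5, 111 bases before the start. The AP-1 letters TGANTCA, found in 7.81% of windows, were in no member's window, and the CArG box, found in 1.63%, was in that of Dusp5 at 82 and 72 bases. The windows of Dusp2, Dusp6, Dusp7, Dusp10 and Dusp16 held none of the 4 motifs, and Dusp4 and Dusp9 were not matched in the table. The Dusp16 window (chr6:134792579-134792878) also lies inside its gene. The outer 5' ends of Dusp8 and Dusp16 were not searched. A match describes the letters and is no measure of binding.

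Dusp8 was higher in every ATG sample than in every saline sample kept in the same oxygen. In room air its levels were 15.7, 12.9 and 18.8 CPM after saline and 23.15, 30.55 and 40.7 CPM after ATG (CPM here and below are scaled by TMM, a correction for library composition). In hyperoxia the levels were 18.8, 18.5 and 23.5 CPM after saline and 34.4, 31.5 and 30.5 CPM after ATG. The ATG samples in room air were the most spread, with an SD of 8.83 CPM against 2.02 to 2.94 CPM in the other groups, and the lowest of them (23.15 CPM) lay just under the highest saline sample in hyperoxia (23.5 CPM). The fitted log2 difference between ATG and saline was 0.99 (SE 0.19) in room air, a 1.99-fold difference, and 0.67 (SE 0.19) in hyperoxia, a 1.59-fold difference. Averaged over both oxygen levels it was 0.83 (SE 0.13). It stayed between 0.72 and 0.92 over the 21 alternative analyses that give this average, which include leaving out each library in turn. These values chose the gene, so they are a description. As background, the same fit called 0.0381% of the 15761 genes tested higher with ATG on average, and nothing is read from that share for Dusp8. The raw counts behind them were 208 to 386 per saline library and 352 to 680 per ATG library. Dusp8 shares 66 exon bases with Gm32786 on the opposite strand, and the strand of the counting is not given, so reads from that stretch could belong to either gene.

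Dusp8 showed no difference with oxygen that passed the test. After saline its log2 change in hyperoxia was 0.36 (SE 0.19, adjusted p = 0.2916 by edgeR's quasi-likelihood test with Benjamini-Hochberg adjustment over 15761 genes), and the samples overlapped. After ATG it was 0.03 (SE 0.19, adjusted p = 0.9422 in the same test). The difference between the drug's 2 log2 differences, the interaction, was -0.33 with a 95% interval of -0.85 to 0.19 (unadjusted p = 0.238, adjusted p = 1 by edgeR). That interval holds both no difference and a drug difference clearly smaller in hyperoxia.

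**Figure D1:**
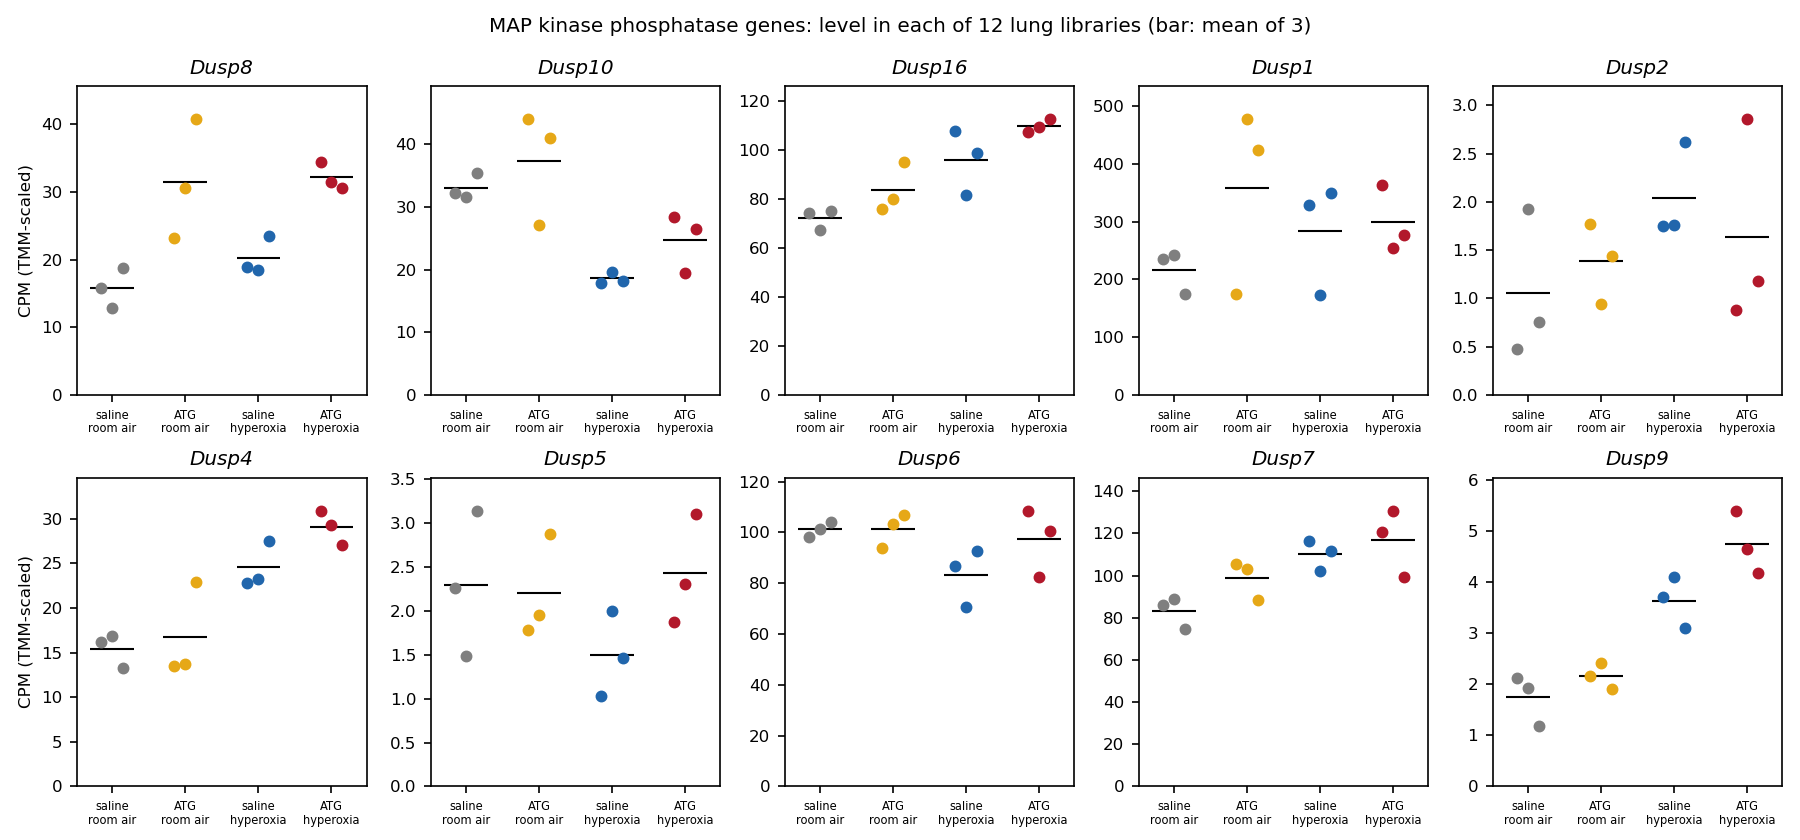
Each panel plots 1 phosphatase gene in CPM (vertical axis from 0) for the 12 libraries by group, with points for libraries and a bar for the mean of 3. The ATG points of Dusp8 lie above the saline points within each oxygen level, while Dusp10 is lower and Dusp4 and Dusp9 are higher in hyperoxia after both injections.

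The other 2 phosphatases that prefer JNK and p38 moved in opposite directions with oxygen. Dusp10, which encodes MKP-5 (chr1:184034381-184075636, plus strand), fell in hyperoxia. After saline its levels were 32.2, 31.5 and 35.4 CPM in room air and 17.9, 19.7 and 18.1 CPM in hyperoxia. The 2 sets of samples were well apart, and the level in hyperoxia was 0.562 of that in room air (log2 change -0.83, SE 0.17, adjusted p = 0.008024 by edgeR). After ATG the levels were 44.0, 27.2 and 40.9 CPM in room air and 28.4, 19.4 and 26.4 CPM in hyperoxia. Here the samples overlapped, since library 2 of ATG in room air was below library 1 of ATG in hyperoxia, and the log2 change of -0.60 (SE 0.17) passed with an adjusted p of 0.03577 by edgeR. The fall after saline passed in all 22 alternatives, at adjusted p from 0.0001732 to 0.04688 by the tool of each. The fall after ATG lost the call in 12 of them. Leaving out library 1 or 3 of ATG in room air (-0.44 and -0.51) or 2 or 3 of ATG in hyperoxia (-0.43 and -0.63) ended it. So did leaving out any library of saline in room air (-0.58 each) or library 3 of saline in hyperoxia (-0.58). It was also lost with sex, inferred from Xist and Y-linked counts, as a covariate, and with only the 2 groups compared. The remaining losses came without both libraries rich in cardiomyocyte genes, alone or with the one rich in skeletal muscle genes.

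Dusp16, which encodes MKP-7 (chr6:134715468-134807063, minus strand), rose in hyperoxia after both injections. Its levels after saline were 74.5, 67.6 and 75.4 CPM in room air and 108, 81.8 and 99.0 CPM in hyperoxia. After ATG they were 75.9, 80.1 and 95.3 CPM in room air and 107.4, 109.6 and 112.8 CPM in hyperoxia. In neither case did the samples overlap. The log2 change was 0.41 (SE 0.11, adjusted p = 0.02755 by edgeR) after saline and 0.39 (SE 0.11, adjusted p = 0.02719) after ATG, 1.33 and 1.31 times the room-air level. Neither call was firm. Leaving out any saline library except library 2 of hyperoxia ended the saline call. Sex as a covariate also ended it (0.39, adjusted p = 0.08056 by edgeR). Leaving out library 1 or 2 of ATG in room air or library 3 of ATG in hyperoxia ended the ATG call, with log2 changes of 0.34, 0.38 and 0.39. Dusp16 also had all ATG samples above all saline samples in room air (log2 difference 0.21, SE 0.11).

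Among the nuclear inducible phosphatases, Dusp4 rose in hyperoxia and the other 3 did not pass the test. Dusp4 encodes MKP-2 (chr8:34807610-34819894, plus strand). After saline it stood at 16.2, 16.9 and 13.3 CPM in room air and 22.8, 23.3 and 27.5 CPM in hyperoxia. After ATG it stood at 13.5, 13.7 and 22.9 CPM in room air and 30.9, 29.3 and 27.0 CPM in hyperoxia. All hyperoxia samples were above all room-air samples after each injection. The rise was 1.59-fold after saline (log2 change 0.67, SE 0.19, adjusted p = 0.03699 by edgeR) and 1.74-fold after ATG (log2 change 0.80, SE 0.19, adjusted p = 0.01159). The saline call ended when any 1 of the 6 saline libraries was left out (log2 changes of 0.58 to 0.74), and also with sex as a covariate (0.68). Sex was inferred from Xist and Y-linked counts, and it differed between the groups: 3 of 3 libraries were male in saline room air, 1 of 3 in ATG room air, 1 of 3 in saline hyperoxia and 2 of 3 in ATG hyperoxia. The ATG call ended only without library 1 of ATG in room air (0.68, adjusted p = 0.0529 by edgeR), of the 22 alternatives run.

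Dusp1, which encodes MKP-1 and is an immediate early gene (chr17:26505591-26508472, minus strand), had the highest levels and the largest SDs in CPM of the members. On the log2 scale its SEs, given below, were smaller than those of Dusp2 and Dusp5. Its levels were 235.3, 241.4 and 174.4 CPM in saline room air, 175, 477.3 and 423.5 CPM in ATG room air, 328.3, 173.7 and 349.4 CPM in saline hyperoxia, and 363.9, 253.9 and 277.6 CPM in ATG hyperoxia. The samples overlapped in each comparison of the design, and the mean in ATG room air was 358.6 ± 161.3 CPM (SD, n = 3). The log2 change with hyperoxia was 0.39 (SE 0.31, adjusted p = 0.4994 by edgeR) after saline and -0.27 (SE 0.31, adjusted p = 0.6467) after ATG. Dusp2 and Dusp5 were close to the lower end of what could be measured. Dusp2, a phosphatase known best from lymphocytes (chr2:127336159-127338377, plus strand), had 7 to 51 counts per library, and Dusp5, a nuclear phosphatase for ERK (chr19:53529145-53541809, plus strand), had 20 to 63. The log2 changes of Dusp2 with hyperoxia were 0.94 (SE 0.57) after saline and 0.24 (SE 0.57) after ATG, with adjusted p of 0.3599 and 0.8387 by edgeR. Those of Dusp5 were -0.62 (SE 0.41) and 0.14 (SE 0.40), with adjusted p of 0.4069 and 0.8693. Changes within these errors were not detectable at this depth. Dusp5 also shares 547 exon bases with the opposite-strand gene AC137853.2, and Dusp1 shares 11 with Ergic1.

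The cytoplasmic phosphatases that prefer ERK did not move together. Dusp9, which encodes MKP-4 and lies on the X chromosome (chrX:73639389-73643514, plus strand), had the largest fitted rise of the members that passed. Its levels after saline were 2.12, 1.92 and 1.19 CPM in room air and 3.71, 4.11 and 3.11 CPM in hyperoxia. After ATG they were 2.17, 2.42 and 1.92 CPM in room air and 5.41, 4.65 and 4.19 CPM in hyperoxia. The samples did not overlap, and the rise was 2.08-fold after saline (log2 change 1.06, SE 0.30, adjusted p = 0.04237 by edgeR) and 2.19-fold after ATG (1.13, SE 0.30, adjusted p = 0.02362). These values rest on 19 to 36 counts per room-air library and 51 to 98 per hyperoxia library. The saline call ended in 16 of 22 alternatives, among them each of the 6 saline libraries left out (0.85 to 1.23), library 1 of ATG in room air or library 1 or 3 of ATG in hyperoxia left out, no filter on low counts and the sex covariate. The ATG call ended in 6, without library 1 or 3 of ATG in room air (1.15 and 1.06), library 1 or 2 of ATG in hyperoxia (1.04 and 1.16), both heart-rich libraries (1.16) or those and the muscle-rich one (1.17). In hyperoxia all ATG samples of Dusp9 were also above all saline samples (log2 difference 0.38, SE 0.29).

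Dusp7 rose in hyperoxia after saline. It encodes MKP-X (chr9:106368560-106375724, plus strand) and stood at 86.3, 88.7 and 74.6 CPM in room air and 116.5, 102.3 and 111.6 CPM in hyperoxia, with no overlap (log2 change 0.41, SE 0.11, adjusted p = 0.03157 by edgeR). The call ended on leaving out any saline library other than library 2 of hyperoxia (0.34 to 0.46). After ATG the levels were 105.6, 102.9 and 88.6 CPM in room air and 120.6, 130.8 and 99.2 CPM in hyperoxia, which overlapped (log2 change 0.24, SE 0.11, adjusted p = 0.1865). The 2 changes are not shown to differ, the interaction being -0.17 (SE 0.15, adjusted p = 1 by edgeR).

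Dusp6, which encodes MKP-3 and is a feedback target of ERK signalling (chr10:99263231-99267489, plus strand), did not pass. After saline its levels were 98.0, 101.2 and 104.3 CPM in room air and 86.9, 70.6 and 92.7 CPM in hyperoxia. Every hyperoxia sample was below every room-air sample, but the log2 change of -0.28 (SE 0.11) had an adjusted p of 0.1494 by edgeR (unadjusted p = 0.0256). After ATG the levels were 94.0, 103.3 and 106.7 CPM in room air and 108.6, 82.6 and 100.5 CPM in hyperoxia, with overlap and a log2 change of -0.06 (SE 0.11, adjusted p = 0.7909). Both low values in hyperoxia came from the 2 libraries with high cardiomyocyte markers; without both libraries the change was -0.16 after saline and 0.06 after ATG.

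**Figure D2:**
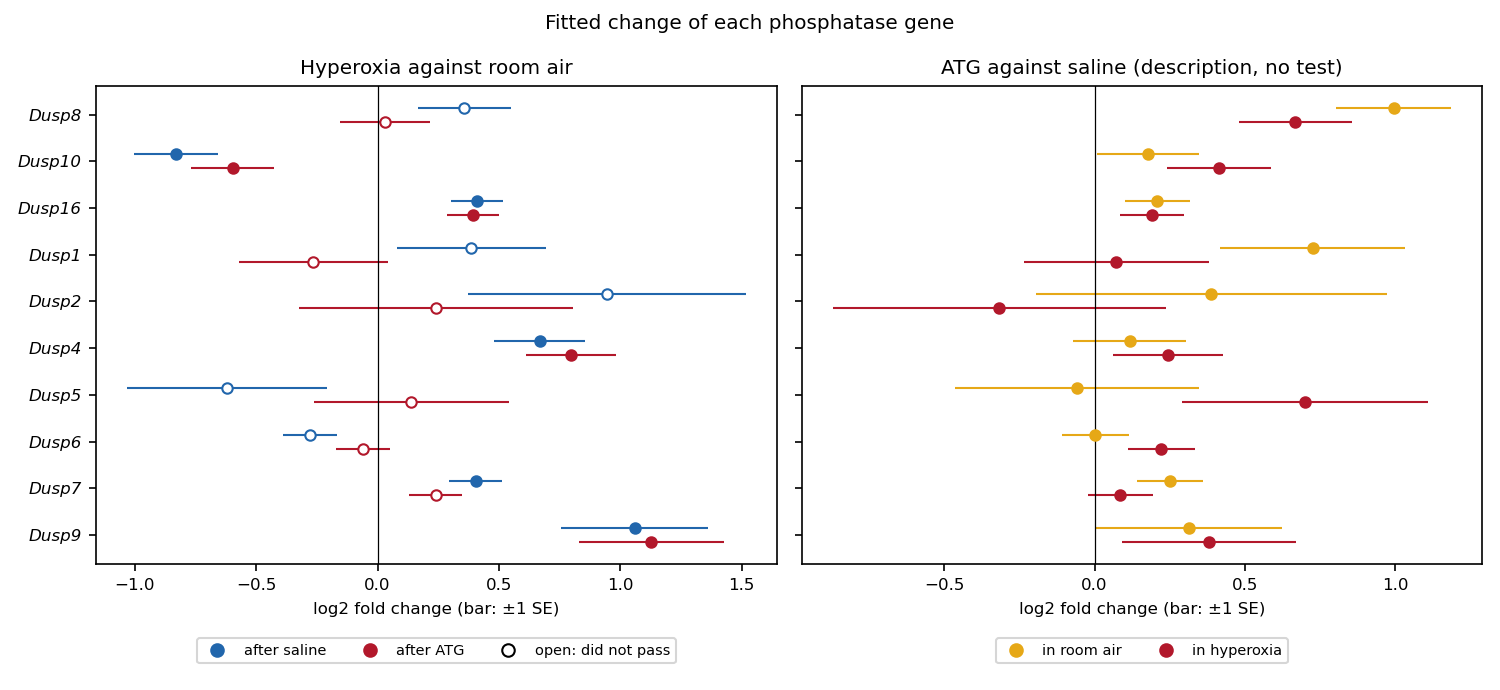
Fitted log2 fold changes of the 10 genes (points, bars of 1 SE) for hyperoxia against room air, where open points did not pass an adjusted p of 0.05, and for ATG against saline, which are not tested. Dusp4, Dusp9 and Dusp16 lie above 0 and Dusp10 below 0 with hyperoxia after both injections. Dusp8 has the largest ATG difference in room air. In hyperoxia Dusp8 (0.67, SE 0.19) lies just under Dusp5 (0.70, SE 0.41).

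Set against all genes, 4 of 10 members rose and 1 fell with hyperoxia after saline, where 4.7% of the 15761 genes tested rose and 4.5% fell. After ATG 3 of 10 rose and 1 fell, where 5.41% and 6.25% of genes did. All 10 members had passed the filter on low counts. Without the heart-rich and muscle-rich libraries, a fit on 9 samples chosen after seeing the data, 1 member was called after saline (Dusp10) and 2 after ATG (Dusp4 and Dusp16). Leaving out library 2 of saline in hyperoxia left 3 calls after saline, and leaving out any other saline library left 1, Dusp10. After ATG 0 calls were left without library 1 of ATG in room air, and 2 without library 3 of ATG in room air or library 2 or 3 of ATG in hyperoxia. The median log2 change of the members was 0.40 after saline and 0.19 after ATG, beside medians of 0.00 over all genes in both comparisons. Those 2 comparisons use different samples but 1 estimate of spread. With the drug, all ATG samples were above all saline samples for Dusp8 and Dusp16 in room air and for Dusp8 and Dusp9 in hyperoxia. Over all genes tested this held for 6.26% and 5.55%, and nothing is read from the members' count because the drug values put the family forward. The medians of the members for ATG were 0.23 in room air and 0.23 in hyperoxia, beside 0.01 and 0.00 over all genes. In room air the fitted ATG difference next below that of Dusp8 was that of Dusp1 (0.72, SE 0.31). In hyperoxia that of Dusp5 (0.70, SE 0.41) was above that of Dusp8, and that of Dusp10 was 0.41 (SE 0.17). These differences were not tested.

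No member's change with hyperoxia was shown to depend on the drug. The interaction was called for 0 of 10 members and 0% of all genes by edgeR, and for 0 members by DESeq2 and limma-voom. At an unadjusted p under 0.05 it was found for 0 members and 465 of 15761 genes. The smallest unadjusted p was 0.1543 for Dusp1, whose interaction was -0.65 with a 95% interval of -1.502 to 0.198. The intervals of Dusp16 (-0.31 to 0.28) and Dusp7 (-0.47 to 0.14) were the narrowest with that of Dusp6 (-0.09 to 0.53). Those of Dusp2 (-2.28 to 0.87) and Dusp5 (-0.37 to 1.89) were the widest.

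Levels of different genes were compared per kilobase of exon, as mean CPM per kb. In saline room air Dusp1 was the highest at 65.6, followed by Dusp6 at 32.3 and Dusp7 at 24.8. Dusp10 was at 10.9 and Dusp16 at 9.30, with ranges (10.4 to 11.6 and 8.67 to 9.66) that did not overlap. Dusp4 was at 5.63 and Dusp8 at 3.25. In ATG room air Dusp8 (6.46) and Dusp4 (6.09) had overlapping ranges and no order, while Dusp8 was below Dusp4 in the other groups. Dusp6 was above Dusp7 in mean in room air and below it in hyperoxia. In saline room air Dusp5, Dusp9 and Dusp2, at 0.928, 0.642 and 0.525, had overlapping ranges and no order. In hyperoxia after saline Dusp16 (12.3) was above Dusp10 (6.11), the reverse of their order in room air, and Dusp4 (8.95) was also above Dusp10. Dusp8 in ATG samples reached 6.46 in room air and 6.60 in hyperoxia, still below Dusp1 at 108.3 and 90.1. The annotation behind the counts is not given, so exon lengths may differ from those the counts rest on.

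**Figure D3:**
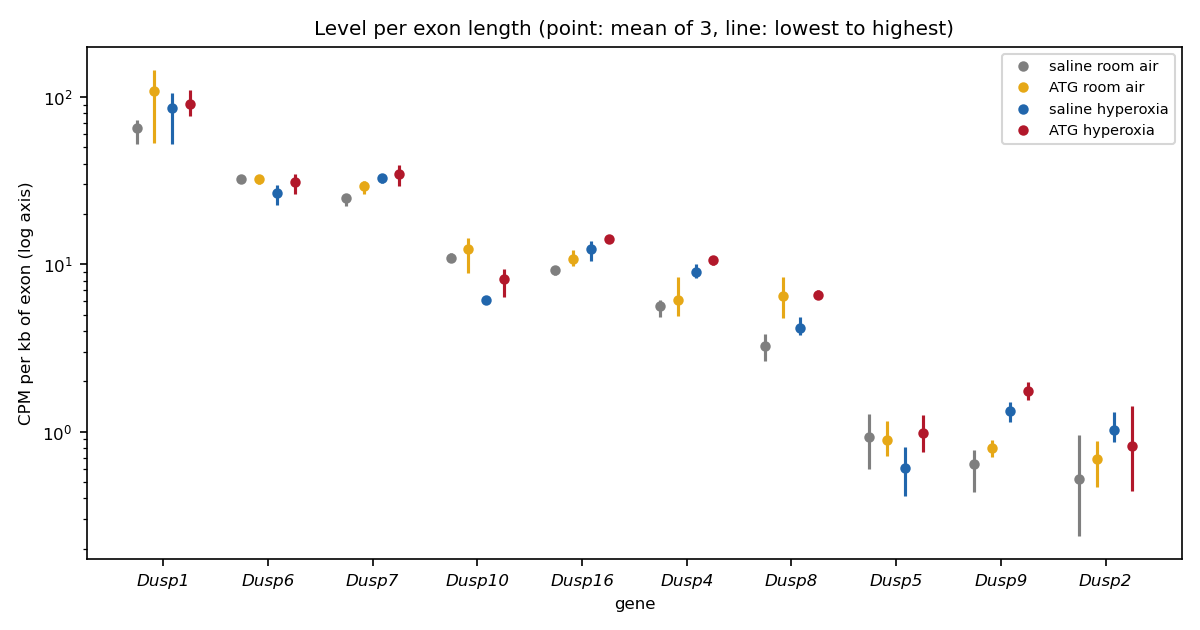
Level per exon length (CPM per kb, log axis) of the 10 genes in the 4 groups, with points for the mean of 3 libraries and lines from the lowest to the highest. Dusp1 is highest at 65.6 in saline room air, Dusp8 lies below Dusp4 there at 3.25 but overlaps it in ATG room air, and Dusp2, Dusp5 and Dusp9 are the lowest.

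The other genes of the pathway are given by list, to be read beside the shares of all genes above (4.7% rose and 4.5% fell after saline, 5.41% and 6.25% after ATG), under which about 1 call among 13 genes is the background. The list of 13 MAP kinase genes includes those of ERK, JNK and p38, the substrates of these phosphatases. Of the 13 genes, 0 passed after either injection by edgeR, also in each of the 22 alternatives, DESeq2 and limma-voom among them. At an unadjusted p under 0.05 there were 2 after saline and 1 after ATG, beside 3582 and 3961 of all 15761 genes. Their median log2 changes were 0.01 after saline and 0.10 after ATG. Of 7 MAP kinase kinases 0 passed after saline (0 or 1 in the alternatives, and 1 at an unadjusted p under 0.05). After ATG 2 passed (0 to 2 in the alternatives). Map2k6, an activator of p38, fell from 14.1 to 7.29 CPM on average (log2 change -0.95, SE 0.22, adjusted p = 0.01065). Its change after saline, -0.65, did not pass (adjusted p = 0.07772), and the ATG call ended without library 3 of ATG in room air. Map2k3, the other main activator of p38, rose after ATG (0.36, SE 0.11, adjusted p = 0.04608), a call that ended in 12 of 22 alternatives. Of these, 5 left out single libraries: each library of ATG in room air, and libraries 1 and 2 of ATG in hyperoxia.

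Of 20 MAP3 kinases 1 rose after saline and 2 after ATG, near the background shares, and none fell. Over the alternatives 1 to 3 were called after each injection. The 3 after saline came with DESeq2, without both heart-rich libraries, and without library 1 or 2 of ATG in hyperoxia, and there were 2 without library 2 of ATG in room air. Map3k9, a mixed lineage kinase upstream of JNK, rose after both: its means were 43.8 and 76.0 CPM in room air and hyperoxia after saline, and 51.0 and 79.6 CPM after ATG (log2 changes 0.79, SE 0.15, and 0.64, SE 0.15, adjusted p = 0.004128 and 0.01008). It passed in all 22 alternatives on each side. Map3k6 rose after ATG (0.78, SE 0.20, adjusted p = 0.01894), a call that ended in 5 alternatives, among them without library 1 or 3 of ATG in room air or library 2 of ATG in hyperoxia. Of 6 scaffold genes tested (7 in the list) Mapk8ip3, which encodes the JNK scaffold JIP3, rose after ATG from 24.0 to 39.5 CPM (0.72, SE 0.14, adjusted p = 0.003295) in all 22 alternatives, and 0 passed after saline (0 or 1 in the alternatives, and 2 at an unadjusted p under 0.05). Of 11 kinases activated by MAP kinases, Mapkapk3, a target of p38, rose after saline (0.47, SE 0.12, adjusted p = 0.03044) and after ATG (0.58, SE 0.12, adjusted p = 0.007224). Mapkapk2 rose after ATG (0.33, SE 0.09, adjusted p = 0.02749). Over the alternatives 0 to 2 of these kinases were called after saline, with 2 without library 2 of ATG in hyperoxia, and 1 or 2 after ATG. The Mapkapk3 call after ATG held in all 22 alternatives; after saline it ended without any 1 saline library other than library 1 of hyperoxia. That of Mapkapk2 ended without library 1 or 2 of ATG in room air or library 2 of ATG in hyperoxia.

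Genes whose RNA is a common readout or brake of ERK signalling went both ways. Of 15 such genes 2 rose and 1 fell after saline, and 1 rose and 2 fell after ATG. Over the alternatives 1 to 5 were called after saline (1 without library 3 of saline in room air) and 0 to 5 after ATG. The 0 came without library 1 of ATG in room air, 1 was left without library 3 of that group or library 1 of ATG in hyperoxia, and the count rose to 5 without library 2 of ATG in hyperoxia, which was rich in cardiomyocyte genes. Epha2, an ephrin receptor gene, rose from 26.6 to 50.4 CPM after saline (0.92, SE 0.15, adjusted p = 0.002127) and from 35.9 to 55.3 CPM after ATG (0.62, SE 0.15, adjusted p = 0.01532). Il17rd, which encodes the ERK pathway inhibitor SEF, fell from 62.6 to 45.1 CPM after saline (-0.47, SE 0.12, adjusted p = 0.01889) and from 55.2 to 39.9 CPM after ATG (-0.47, SE 0.12, adjusted p = 0.01624). Spry2, another inhibitor, rose after saline (0.50, SE 0.13, adjusted p = 0.02631), and Etv5, an ETS factor induced by ERK, fell after ATG (-0.34, SE 0.10, adjusted p = 0.03844). The Epha2 call after saline held in all 22 alternatives, and the one after ATG ended without library 1 of ATG in room air or in hyperoxia. Single libraries ended the other calls of this list. For Il17rd they were libraries 2 and 3 of saline in room air and 1 of saline in hyperoxia, and after ATG libraries 1 and 3 of room air and 3 of hyperoxia. For Spry2 they were libraries 1 and 3 of each saline group, and for Etv5 any of 9 libraries.

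Of 17 AP-1 and related factor genes tested (18 in the list), 3 rose after saline, and 2 rose and 1 fell after ATG. Over the alternatives 1 to 5 were called after saline and 0 to 5 after ATG, with 5 in each by DESeq2. After saline 1 was left without library 1 or 3 of saline in room air or library 3 of saline in hyperoxia. After ATG 0 were left without library 1 of either ATG group, and 5 were called without library 3 of ATG in hyperoxia. Egr1, an immediate early gene of the ERK and serum response factor pathway, rose from 116.3 to 283.3 CPM after saline (1.28, SE 0.26, adjusted p = 0.007403) and from 97.6 to 189.8 CPM after ATG (0.96, SE 0.26, adjusted p = 0.02814). Atf3, a stress-induced factor, rose from 5.38 to 12.2 CPM after saline (1.18, SE 0.33, adjusted p = 0.03678) and from 10.4 to 24.4 CPM after ATG (1.22, SE 0.31, adjusted p = 0.02075). Fos rose after saline from 10.8 to 26.4 CPM (1.29, SE 0.36, adjusted p = 0.03858), and Elk3 fell after ATG (-0.32, SE 0.09, adjusted p = 0.03675). Egr1 after saline passed in all 22 alternatives. Its ATG call ended without library 1 or 3 of ATG in room air or 1 of ATG in hyperoxia, and that of Atf3 without library 1 of either. Atf3 after saline was lost without any library of saline in room air or library 2 or 3 of saline in hyperoxia, and Fos without library 1 or 3 of either saline group. Elk3 lost its call in 14 alternatives, 9 of them leaving out 1 library.

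Of 19 other phosphatases tested (22 in the list), 2 rose and none fell after each injection, beside 4.7% and 5.41% of all genes that rose. Over the alternatives 1 to 3 were called after saline and 2 or 3 after ATG. Dusp3, which encodes VHR, a small phosphatase without the kinase-binding domain of the members, had means of 156.4 ± 10.1 and 233.3 ± 2.42 CPM in room air and hyperoxia after saline and 186.7 ± 11.6 and 263.2 ± 11.2 CPM after ATG (SD, n = 3). Its log2 changes were 0.58 (SE 0.07, adjusted p = 0.0003636 by edgeR) and 0.49 (SE 0.07, adjusted p = 0.0007242), and they passed in all 22 alternatives. Dusp18 rose by 0.39 (SE 0.11, adjusted p = 0.04562) after saline and 0.59 (SE 0.11, adjusted p = 0.003357) after ATG. The second call held in all 22 alternatives and the first ended in 10, including 7 that left out 1 library: libraries 1 and 2 of saline in room air, all of saline in hyperoxia, and library 1 of each ATG group. The interaction was called for 0 genes of any list by edgeR, with 1 MAP3 kinase and 2 scaffold genes at an unadjusted p under 0.05.

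**Figure D4:**
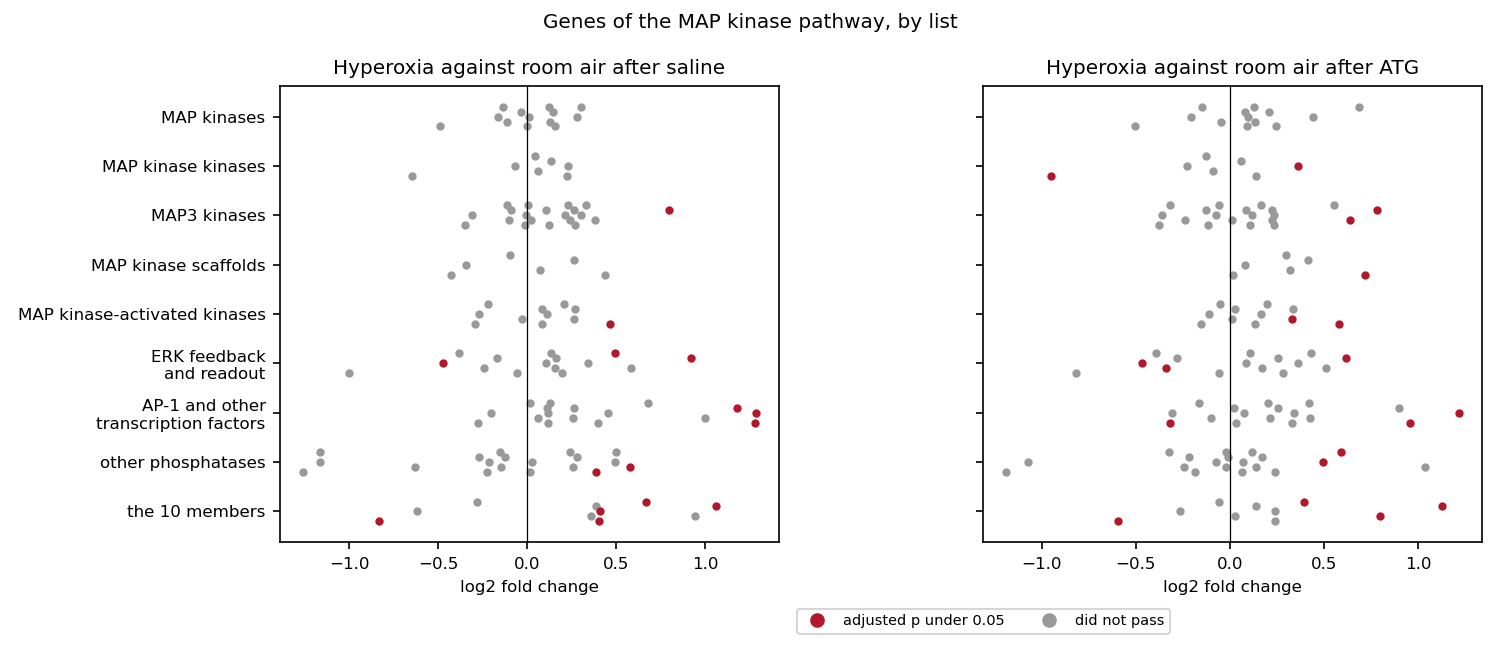
Log2 fold changes with hyperoxia after saline (left) and after ATG (right) for every tested gene of 8 MAP kinase pathway lists and for the 10 members, with red points at adjusted p under 0.05. MAP kinases have 0 red points in either panel, and the members have 5 after saline and 4 after ATG.

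Likeness to Dusp8 over the 12 samples was described for the other members and, apart from them, for genes outside the family. The best of many genes can exceed the best of a few members by number alone, so they are not set against each other. Among the members the Pearson correlation of log2 CPM with Dusp8 was highest for Dusp16 (0.65) and Dusp1 (0.59), and near 0 for Dusp2 (0.07) and Dusp10 (0.07). These 12 points share the 4 groups, so the correlations describe the data and carry no p. With the members left out, 14573 genes with a mean of at least 1 CPM were ranked. S1pr1, the receptor for sphingosine 1-phosphate of endothelial cells, was the most alike (Pearson r = 0.96, Spearman rho = 0.93). Without the 2 samples farthest from the median its r was 0.96. Its means were 177.8 ± 8.96 CPM in saline room air, 283.3 ± 46.2 in ATG room air, 209.5 ± 25.2 in saline hyperoxia and 314.3 ± 46.5 in ATG hyperoxia (SD, n = 3). The next were Smg8 (r = 0.94), Arrdc3 (0.93), Actr1b (0.92) and Slc25a25 (0.92). The genes most opposed were Clk1, a kinase of splicing factors (r = -0.91), Gm14326 (-0.90) and Rbm5, an RNA-binding splicing regulator (-0.89). Clk1 had means of 126.9 CPM in saline room air, 78.0 in ATG room air, 106.2 in saline hyperoxia and 81.6 in ATG hyperoxia. Without the 2 farthest samples r ran from 0.87 to 0.96 for the 5 alike and from -0.87 to -0.81 for the 3 opposed. Having been picked from so many genes, they are listed by likeness only.

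**Figure D5:**
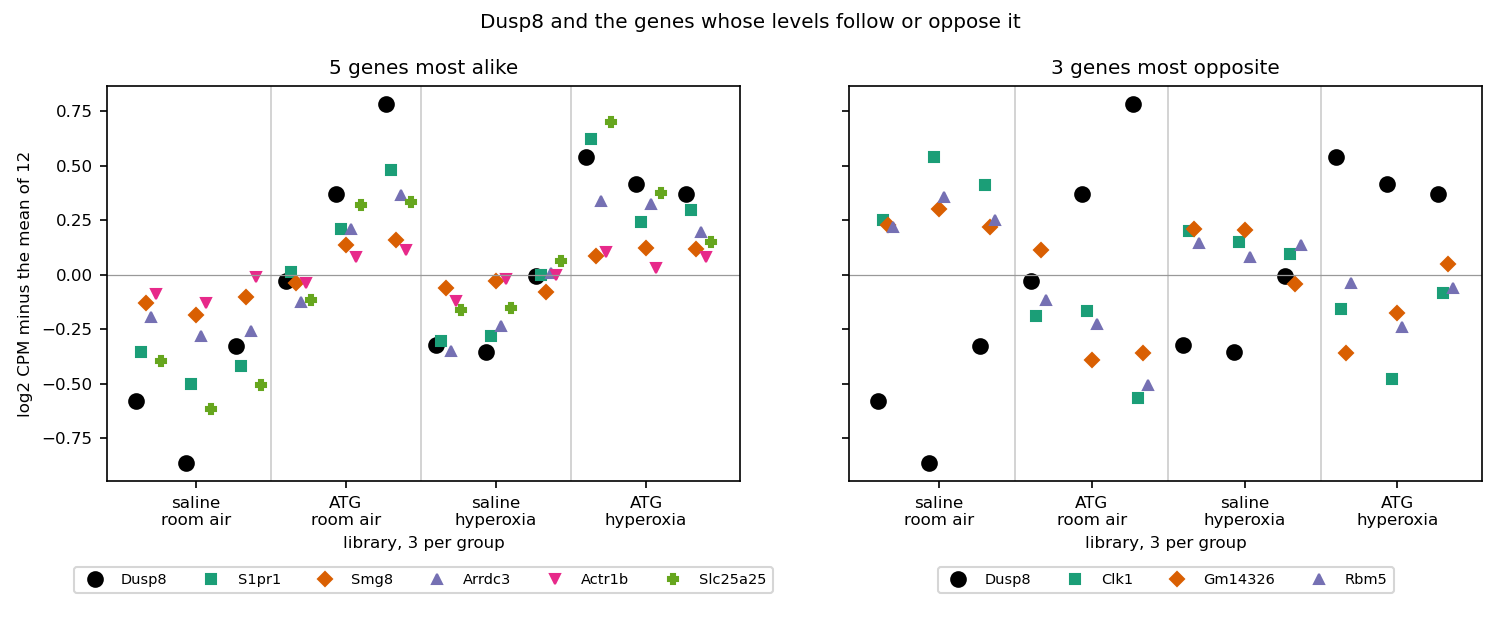
Log2 CPM minus the mean of the 12 libraries (vertical axis) for Dusp8 in black with the 5 genes most alike (left) and the 3 most opposed (right), in the order of the groups. Dusp8 and S1pr1 are high in the ATG libraries, and Clk1 is low there.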

How the data were processed

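Per the labels' protocols, cDNA amplified by the NuGEN Ovation system went into Nextera XT libraries that were read from both ends on an Illumina HiSeq. The authors deposited raw counts per gene symbol for 12 libraries, neither normalized nor pooled. Bowtie2, Cufflinks, DESeq and mm10 are named in the submitters' processing notes. Which tool counted, whether by strand and on which annotation is not given in the sources used here. Overlapping or near-identical genes may therefore share reads.

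Genes passing filterByExpr by group (minimum count 10, minimum total 15; 15761 of 23478 genes, 99.96% of counts) entered 1 TMM-scaled model of all 12 samples, edgeR's quasi-likelihood test (residual degrees of freedom: 8). Tests are two-sided, with p-values adjusted by Benjamini-Hochberg over all genes tested, with a threshold of 0.05. Every adjusted p in the report comes from that test unless another tool is named. SEs are the log2 change divided by the square root of F, and intervals are approximate. The median gene's biological coefficient of variation was 15.0%. Levels per length use GENCODE M21 exons (GRCm38), positions and promoter windows RefSeq (GRCm38.p6; 8 of 10 members matched in the promoter table). Replicates differed beyond sampling noise (chi-square per degree of freedom 6.83 to 41.9). Software: edgeR 4.0.16, DESeq2 1.42.0 and limma 3.58.1 ran under R 4.3.3.

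The members and the lists were chosen with earlier results of these data known. All 10 members are named, and of each list up to 4 genes that passed in a hyperoxia comparison, by adjusted p. Genes like Dusp8 are the 5 highest and 3 lowest by Pearson's r of log2 CPM (prior count 2). Of the 22 alternatives, 12 left out 1 library each. The others were DESeq2, limma-voom, RLE scaling, no filter, the replicate number as a block, sex (inferred from Xist and Y-linked genes) or cardiomyocyte markers as a covariate, both heart-rich libraries left out, only the 2 groups compared, and, chosen after seeing the data, the heart-rich and muscle-rich libraries left out together.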

Additional observations from a re-analysis of the deposited data

How the results depend on the processing

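The log2 changes of the members were recomputed under 22 alternatives. Of 650 values for hyperoxia and the interaction, 564 kept their direction and their side of the threshold, 60 lost the call and 26 reversed. Of 650 drug differences, which have no test, 35 changed sign (in 7 of the members' differences, 0 of them of Dusp8) and 4 moved by more than the replicate spread. The number of members called for hyperoxia after saline was 5; it was 2 with sex as a covariate, 1 without the muscle-rich and both heart-rich libraries, and 1 to 5 when 1 library was left out. After ATG it was 4; it was 2 without both heart-rich libraries, 2 without those and the muscle-rich one, and 0 to 4 when 1 library was left out, the 0 being without library 1 of ATG in room air. Fits with fewer samples have less power, and the part of that in the lower counts was not tested. DESeq2 and RLE scaling each called 5 and 4, and limma-voom and no filter each called 4 and 4. With the replicate number as a block 4 members were called after saline and 4 after ATG; Dusp4 after saline was lost there (0.66, adjusted p = 0.05321 by edgeR). Same-numbered samples deviated together above r = 0.1 in 2 of 18 pairs (r from -0.16 to 0.28), so the numbers were not treated as pairs. Both of these pairs were between saline hyperoxia and ATG hyperoxia. They were libraries 2 (0.28), which are the heart-rich ones, and libraries 3 (0.13). The 26 reversals were of changes that had not passed. For hyperoxia after ATG, leaving out 1 library gave -0.577 to 0.00995 for Dusp1, -0.403 to 0.55 for Dusp2, -0.0655 to 0.395 for Dusp5, -0.133 to 0.0597 for Dusp6 and -0.13 to 0.27 for Dusp8, which was -0.0155 with the sex covariate. With the cardiomyocyte covariate Dusp2 was -0.10 and Dusp6 was 0.0292; without both heart-rich libraries they were -0.403 and 0.0597, and without those and the muscle-rich one -0.392 and 0.0694. The interaction of Dusp4 was -0.0333 in that last fit, that of Dusp9 ran from -0.0855 to 0.29 and that of Dusp16 from -0.119 to 0.0947 when 1 library was left out, and Dusp16 gave 0.0124 with the sex covariate and 0.0109 with the cardiomyocyte covariate. The cause of these shifts was not tested. Low counts limit Dusp2, Dusp5 and Dusp9.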
